A study of Mus musculus with 48 samples.

Results

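The genes described here carry glucose into the heart muscle cell and process it there: glucose transporters, hexokinases, the enzymes of glycolysis, lactate dehydrogenase, pyruvate dehydrogenase with its kinases and phosphatases, and the genes of glycogen synthesis and breakdown. They are a list of 39 gene symbols, matched by Ensembl identifier to a table of 53700 genes, in which all 39 were found. Of these, 38 had enough reads to be tested among 16623 genes. Aldoc, the aldolase isoform typical of brain, was too low for a test, with 0 to 55 reads in a library, and is given by its level alone.

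RNA was taken from biventricular hearts of 48 male C57BL/6 mice, with 6 animals in each of 8 groups that make up 4 mouse lines. CBK mice (Bmal1flox/flox with MHCαCre+/-) were set against BMAL1 FLOX littermates that have the floxed alleles without Cre. CEK mice (E4bp4flox/flox with MHCαCre+/-) were set against E4BP4 FLOX littermates, and CBK/CEK mice, with both genes floxed and Cre, against BMAL1/E4BP4 FLOX littermates. Cre CON mice (MHCαCre+/- with no floxed gene) were set against WT littermates, which shows what Cre does by itself. The MHCα (Myh6) promoter drives Cre in cardiomyocytes, so the other cells of the ventricle keep the floxed genes. The age of the mice and the time of day at which hearts were taken could not be read from the sources used here. In RNA from whole ventricles, fewer cells of a type and less RNA per cell cannot be told apart.

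Glucose enters cardiomyocytes through GLUT1 and the insulin-responsive GLUT4, is trapped by hexokinase as glucose 6-phosphate, and then goes either into glycogen or down glycolysis to pyruvate. Phosphofructokinase commits sugar to glycolysis and is activated by fructose 2,6-bisphosphate, which the PFKFB enzymes make and remove. Pyruvate is turned into lactate or is oxidised in mitochondria by pyruvate dehydrogenase, which PDK kinases switch off and PDP phosphatases switch on. BMAL1 is a transcription factor of the circadian clock, and E4BP4 is a transcriptional repressor whose own level follows the clock.

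The libraries held 13128833 to 28407868 reads assigned to genes, apart from WT replicate 1 with 126338949. Levels are CPM (counts scaled to equal library size) on library sizes scaled by the TMM method. Each change is a log2 fold change from edgeR. Its standard error was derived as the size of the change divided by the square root of edgeR's F statistic. A gene was called at a Benjamini-Hochberg adjusted p under 0.05 over all 16623 genes. Nfil3, which encodes E4BP4, averaged 0.644 ± 0.0948 CPM in CEK hearts, against 8.07 ± 1.40 CPM in E4BP4 FLOX hearts, and 1.84 ± 0.649 CPM in CBK/CEK hearts, against 9.34 ± 1.65 CPM in BMAL1/E4BP4 FLOX hearts (SD, n = 6 each). Arntl, which encodes BMAL1, averaged 8.40 ± 2.41 CPM in CBK hearts, against 1.04 ± 0.381 CPM in BMAL1 FLOX hearts, and 11.8 ± 0.894 CPM in CBK/CEK hearts, against 0.987 ± 0.327 CPM in BMAL1/E4BP4 FLOX hearts. Counts over the whole gene were thus higher in the groups labelled as Bmal1 knockouts, and they do not show whether the floxed part was lost, so these groups are named by their labels. Nfil3 was also higher in CBK hearts, at 38.9 ± 5.20 CPM against 10.9 ± 2.03 CPM in BMAL1 FLOX hearts. The 8 cardiomyocyte markers summed to 57405 to 110031 CPM in CBK and 65634 to 82049 CPM in BMAL1 FLOX libraries, while lymphocyte markers summed to at most 3.88 CPM and skeletal muscle markers to at most 5.71 CPM in any library. Over all libraries fibroblast markers summed to 939 to 1524 CPM, macrophage markers to 109 to 271 CPM and atrial markers to 54.6 to 2794 CPM, while erythroid markers reached 1284 CPM and adipocyte markers 52.8 CPM. The 5 liver markers, a list added after the data were seen, had a median sum of 21.8 CPM in CBK against 3.71 CPM in BMAL1 FLOX libraries, and reached 296 CPM in CBK replicate 5 and 559 CPM in WT replicate 1. The part of these cells in the results was not tested.

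In WT hearts the set was led by the muscle and heart isoforms. Per kilobase of exon, Ldhb (the heart-type lactate dehydrogenase subunit) stood highest at 1119.8 ± 72.8 CPM per kb, followed by Aldoa (aldolase A) at 988 ± 47.2, Eno3 (muscle enolase) at 976 ± 105 and Pgam2 (muscle phosphoglycerate mutase) at 722 ± 81.3 CPM per kb (SD, n = 6). Aldoa and Eno3 lay within each other's spread, with Pgam2 below them. The spread of Ldhb lay above that of Aldoa but met that of Eno3. Gapdh, Pygm (muscle glycogen phosphorylase) and Pfkm (muscle phosphofructokinase) came next at 469, 405 and 348 CPM per kb. At the other end stood Pfkp (platelet-type phosphofructokinase) at 3.11 ± 0.512, Pdk3 at 1.07 ± 0.223, Pfkfb3 at 0.887 ± 0.215 and Aldoc at 0.0493 ± 0.0422 CPM per kb. Within families, one isoform usually held most of the transcripts: Pgam2 99.0% of phosphoglycerate mutase, Eno3 97.4% of enolase, Slc2a4 96.8% of the GLUT1 and GLUT4 genes, Pfkm 93.1% of phosphofructokinase and Ldhb 84.99% of lactate dehydrogenase, each per kb in WT hearts. The share of Pgam2 rests on counts of Pgam1, which are uncertain for the reason given under lower glycolysis. The 39 genes together made up 1.63% to 2.34% of the TMM-scaled size of a library, which is not the same as the share of assigned reads. Means were 2.02% in CBK against 1.92% in BMAL1 FLOX, and 1.71% in CEK against 1.85% in E4BP4 FLOX. They were 1.84% in CBK/CEK against 1.86% in BMAL1/E4BP4 FLOX, and 1.83% in Cre CON against 1.93% in WT.

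**Figure D1:**
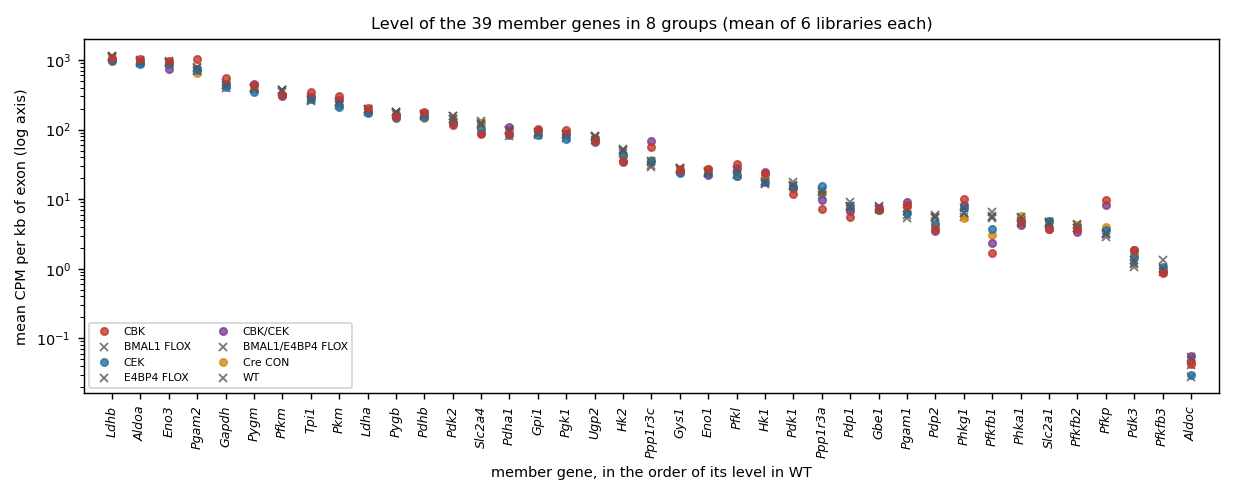
Mean level of each of the 39 genes in the 8 groups (CPM per kb of exon, log axis, 6 libraries a group), in the order of WT; coloured points are the groups with Cre and crosses are their littermates. The levels run from 1120 CPM per kb for Ldhb to 0.0493 CPM per kb for Aldoc in WT, and the coloured points part from the crosses mainly at Pfkp, Pfkfb1, Ppp1r3c and Ppp1r3a.

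The set changed most in the lines with floxed Bmal1, and in both directions. In CBK hearts 17 of the 38 tested genes were called (44.7%, where 8.4% of all genes were called), 8 of them higher (background 4.05%) and 9 lower (background 4.35%). In CBK/CEK hearts 11 were called (28.9%, background 5.87%), 5 higher (background 2.97%) and 6 lower (background 2.9%). In CEK hearts 3 were called, all lower (7.89%, background 0.307%). In Cre CON hearts edgeR called none of the 38 (background 0.018%) and DESeq2 called 1 (DESeq2 background 0.157%). By edgeR 6 had an unadjusted p under 0.05, as had 606 of all 16623 genes. The median log2 fold change of the set stayed near that of all genes: 0.02 in CBK (all genes -0.00), -0.07 in the CEK line (all genes 0.02), -0.11 in CBK/CEK (all genes -0.02) and -0.06 in the Cre line (all genes -0.01). Of the 17 genes called in CBK hearts, 9 were also called in CBK/CEK hearts, all in the same direction, which is 52.9% of the first list and 81.8% of the second. Across the 4 lines 19 genes were called at least once, 2 of them (Pfkfb1 and Slc2a4) in 3 lines, 8 in 2 lines and 9 in 1 line. The share of all genes called in both or in several lines is not given here. The overlap thus cannot be taken as particular to the set.

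The size of these counts depended on how the libraries were pooled. Fitted with the 12 libraries of its own line alone, CBK had 6 called genes (background 5.83%), and without 5 libraries picked in an earlier analysis of these data for their composition (replicates 3 and 5 of CBK, 4 and 5 of CEK, and 6 of the BMAL1/E4BP4 FLOX group) it had 11. CEK had 1 called gene when fitted alone (background 0.175%) and 0 without those libraries. CBK/CEK had 9 when fitted alone (background 4.92%) and between 9 and 14 over all alternatives. Where no background is printed, the share of all genes called is not given, so a shift cannot be taken as particular to the set. The correlation of a library's log2 levels with the mean of the other 5 of its group was 0.948 to 0.961 in 4 of these 5 libraries, the lowest of all 48, and 0.981 in CBK replicate 3. In CBK hearts 1 of 8 cardiomyocyte markers (Pln, log2 fold change -0.49) and 1 of 6 endothelial markers (Kdr, -0.40) were called lower (background 4.35%). On the mural list 1 of 6 genes was called lower (Abcc9, -0.77). Whether Abcc9, which is part of the mural sum, marks mural cells alone in whole ventricle was not tested. The 6 mural markers summed to 548 to 767 CPM in CBK against 832 to 909.7 CPM in BMAL1 FLOX libraries, and the 6 endothelial markers to 748 to 1158 CPM against 946 to 1322 CPM. In CBK/CEK hearts Abcc9 (-0.70, background 2.9% lower) and Acta2 (0.89, background 2.97% higher) were called among the 6 mural markers. Their sum was 748 to 952 CPM against 788 to 981 CPM in BMAL1/E4BP4 FLOX libraries. No marker on the lists was called in CEK or Cre CON hearts (backgrounds 0.307% and 0.018%). The part of these cell types in the changes was likewise not tested.

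**Figure D2:**
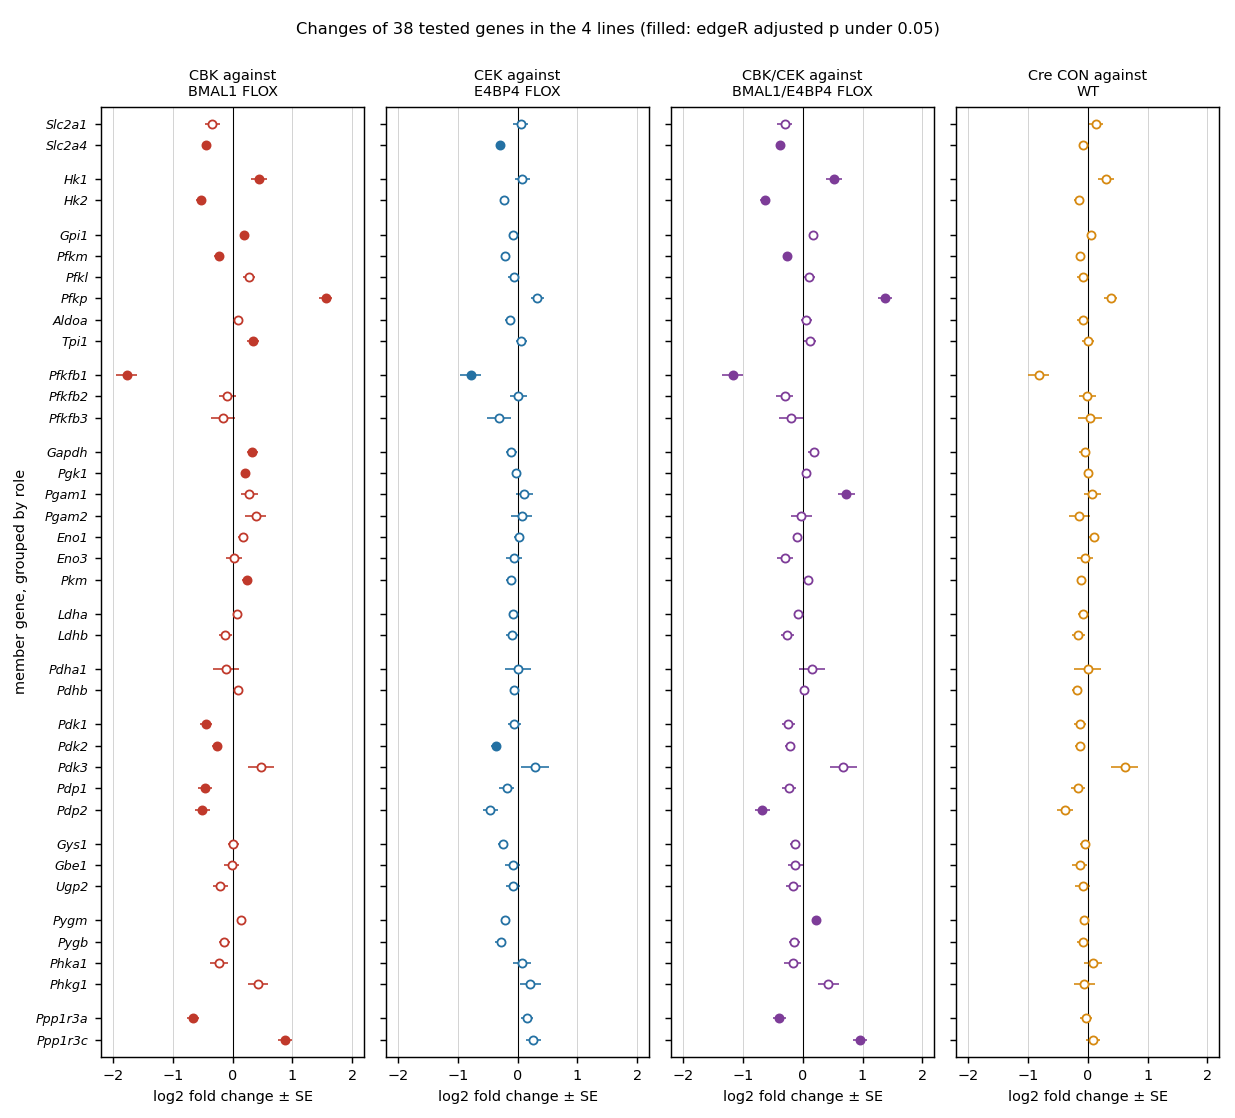
Log2 fold change (edgeR, ± SE) of the 38 tested genes in the 4 lines, grouped by role from transporters to glycogen; filled points have an adjusted p under 0.05. CBK has 17 filled points, CEK 3, CBK/CEK 11 and Cre CON 0, and the farthest from 0 are Pfkp on the right and Pfkfb1 on the left.

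Of the glucose transporters, Slc2a4 (GLUT4) fell in every line with a floxed gene, while Slc2a1 (GLUT1) was called in none in the fit of all libraries. Slc2a4 stood at 285, 306 and 325 CPM in CBK hearts, against 376, 418 and 442 CPM in BMAL1 FLOX hearts (lowest, median and highest library). It stood at 295, 356 and 396 CPM in CEK hearts, against 399, 428 and 469.9 CPM in E4BP4 FLOX hearts. In the line with both genes floxed it had 284, 308 and 336 CPM in CBK/CEK hearts, against 363, 413 and 431 CPM in BMAL1/E4BP4 FLOX hearts. In all 3 lines the highest library with Cre lay below the lowest littermate. CBK hearts held 73.6% of the level of their littermates. The log2 fold changes were -0.44 ± 0.07 in CBK (edgeR adjusted p = 3.58e-06), -0.29 ± 0.07 in CEK (edgeR adjusted p = 0.0395) and -0.38 ± 0.07 in CBK/CEK (edgeR adjusted p = 1.00e-04). Cre CON and WT libraries overlapped, with 413, 423 and 481 CPM in Cre CON hearts, against 404, 464 and 496 CPM in WT hearts, and a log2 fold change of -0.08 ± 0.07 that was not called. The call in CEK was lost without the 5 libraries above and when that line was fitted alone. Slc2a1 stood at 8.29, 13.3 and 15.7 CPM in CBK hearts, against 12.2, 16.0 and 19.9 CPM in BMAL1 FLOX hearts, in groups that overlapped. It had log2 fold changes of -0.34 in CBK and -0.30 in CBK/CEK, neither called (edgeR adjusted p = 0.0732 and 0.157). Without the 5 libraries above it was called in CBK/CEK at -0.34 (edgeR adjusted p = 0.0497). The Slc2a4/Slc2a1 ratio showed no difference past the threshold in the lines with a floxed gene: its log2 mean differed by -0.10 for CBK (exact permutation p = 0.558, adjusted p = 0.726), -0.34 for CEK (exact permutation p = 0.0281, adjusted p = 0.0665) and -0.07 for CBK/CEK (exact permutation p = 0.509, adjusted p = 0.696). It passed in the Cre line, with log2 means of 4.68 ± 0.15 in Cre CON and 4.90 ± 0.16 in WT hearts (SD, n = 6 each; exact permutation p = 0.0108, adjusted p = 0.0331). The transporters thus differed in their calls, without a shift between them beyond the spread in CBK or CBK/CEK.

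The hexokinase pair moved in opposite directions. Hk2, the insulin-responsive hexokinase of striated muscle, stood at 184, 197 and 265 CPM in CBK hearts, against 270.3, 291 and 371 CPM in BMAL1 FLOX hearts. It stood at 169.7, 199 and 254 CPM in CBK/CEK hearts, against 285, 318 and 336 CPM in BMAL1/E4BP4 FLOX hearts. The groups did not overlap in either line, and the log2 fold changes were -0.53 ± 0.08 (edgeR adjusted p = 4.39e-06) and -0.63 ± 0.08 (edgeR adjusted p = 1.83e-07). Hk1, the hexokinase found in most tissues, stood at 153, 208.2 and 247 CPM in CBK hearts, against 126, 147 and 183 CPM in BMAL1 FLOX hearts. The same gene had 166, 209 and 252 CPM in CBK/CEK hearts, against 122.6, 148 and 171.6 CPM in BMAL1/E4BP4 FLOX hearts. Its groups overlapped in both lines, yet it was called higher by 0.45 ± 0.13 (edgeR adjusted p = 0.0185) and 0.52 ± 0.13 (edgeR adjusted p = 0.00647) in log2 fold change. The Hk1 call in CBK was lost when that line was fitted alone. Neither gene was called in CEK, where Hk2 had 231, 258 and 273 CPM in CEK hearts, against 256, 289 and 348 CPM in E4BP4 FLOX hearts. In the Cre line Hk2 was not called either, although all 6 Cre CON libraries, at 229, 249 and 255 CPM, lay below all 6 WT libraries, at 262, 273 and 287 CPM (log2 fold change -0.15 ± 0.08). Hk2 was 1 gene of 38 without overlap in that line, against 0.608% of all genes.

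Within each library, the Hk2/Hk1 ratio removes any scaling between libraries. Its mean log2 value was 0.06 ± 0.42 in CBK and 1.02 ± 0.11 in BMAL1 FLOX hearts, a difference of -0.96 (SD, n = 6 each; exact permutation test, two-sided, p = 0.00216, adjusted p = 0.0161 over 52 ratio tests). In CBK/CEK hearts the 2 transcripts were about equal in count, at -0.04 ± 0.09 against 1.11 ± 0.22 in BMAL1/E4BP4 FLOX hearts, a difference of -1.15 (exact permutation p = 0.00216, adjusted p = 0.0161). In the Cre line the ratio was lower as well, differing by -0.46 (exact permutation p = 0.00649, adjusted p = 0.0260), with means of 0.39 ± 0.22 in Cre CON and 0.85 ± 0.20 in WT. In CEK hearts the difference was -0.28 with an exact permutation p of 0.104. An exact test of 6 against 6 cannot go below p = 0.00216. Per kb, Hk2 made up 59.7% ± 6.81 of the transcripts of the pair in CBK against 74.4% ± 1.45 in BMAL1 FLOX hearts, and 58.2% ± 1.51 in CBK/CEK against 75.5% ± 2.87 in BMAL1/E4BP4 FLOX hearts (SD, n = 6 each).

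**Figure D3:**
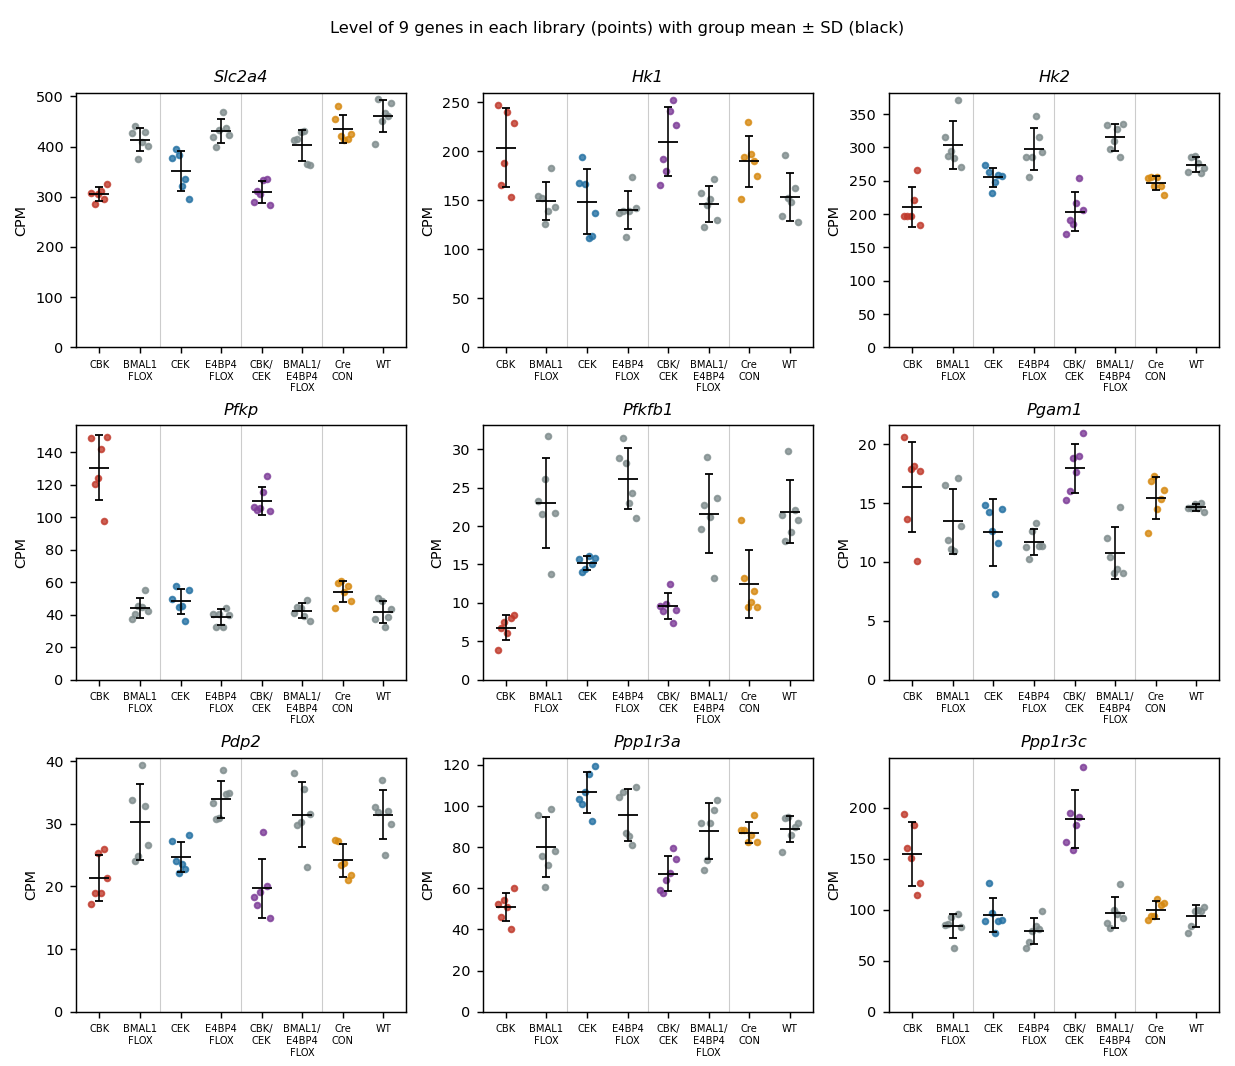
CPM of 9 genes in each of the 48 libraries (points) with the group mean ± SD (black), the group with Cre left of its littermates in each line. Slc2a4, Hk2, Pfkfb1, Pdp2 and Ppp1r3a are lower and Hk1, Pfkp and Ppp1r3c higher in CBK and CBK/CEK, and Pgam1 is higher in CBK/CEK (edgeR adjusted p = 2.49e-04).

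Among the enzymes from glucose 6-phosphate to triose phosphate, Pfkp gave the largest rise of the set. Pfkp encodes the platelet-type subunit of phosphofructokinase and stood at 97.8, 133 and 149 CPM in CBK hearts, against 37.2, 43.6 and 55.3 CPM in BMAL1 FLOX hearts. It had 104, 106 and 125 CPM in CBK/CEK hearts, against 35.9, 42.7 and 49.3 CPM in BMAL1/E4BP4 FLOX hearts. The lowest library with Cre was above the highest littermate in both lines, and Pfkp was 2.95-fold higher in CBK (log2 fold change 1.56 ± 0.11, edgeR adjusted p = 1.05e-15) and 2.60-fold higher in CBK/CEK (log2 fold change 1.38 ± 0.11, edgeR adjusted p = 1.31e-13). In CEK hearts it had 36.4, 47.5 and 57.4 CPM, against 32.4, 40.2 and 44.4 CPM in E4BP4 FLOX hearts. In Cre CON hearts it had 44.3, 56.0 and 60.5 CPM, against 32.1, 40.9 and 49.95 CPM in WT hearts. Those groups overlapped, and log2 fold changes of 0.33 ± 0.11 and 0.38 ± 0.11 were not called (edgeR adjusted p = 0.195 and 0.388). On the GENCODE M21 annotation 5.58% of the exon bases of Pfkp lie over Pitrm1 on the opposite strand, which averaged 34.03 CPM. The counting is not stated to use strand, so a small part of these reads cannot be assigned with certainty.

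Pfkm, which holds most phosphofructokinase transcripts in heart, fell slightly in the same lines, with log2 fold changes of -0.23 ± 0.07 in CBK (edgeR adjusted p = 0.0316) and -0.26 ± 0.07 in CBK/CEK (edgeR adjusted p = 0.0166). Its medians were 1084 CPM in CBK against 1258 CPM in BMAL1 FLOX hearts, with overlapping groups, and the CBK call was lost without the 5 libraries above. The calls in CBK and CBK/CEK were both lost when each line was fitted alone. The Pfkp/Pfkm ratio rose in every line, Cre alone included: its log2 mean differed by 1.79 in CBK (exact permutation p = 0.00216, adjusted p = 0.0161), 0.54 in CEK (exact permutation p = 0.00433, adjusted p = 0.0250), 1.65 in CBK/CEK (exact permutation p = 0.00216, adjusted p = 0.0161) and 0.51 in Cre CON (exact permutation p = 0.00649, adjusted p = 0.0260). The ratio remained low in absolute terms, since Pfkp made up 2.69% ± 0.387 of phosphofructokinase transcripts per kb in CBK against 0.818% ± 0.126 in BMAL1 FLOX hearts, and Pfkm 88.4% against 92.6%. Pfkl, the liver-type subunit, was not called in any line by the edgeR fit of all libraries (log2 fold change 0.28 ± 0.10 in CBK, edgeR adjusted p = 0.0662). In CBK it was called by DESeq2 (0.30, DESeq2 adjusted p = 0.0352) and by edgeR under 3 other settings (edgeR adjusted p of 0.0375 to 0.0452). These were RLE normalisation, a filter of 1 CPM in 6 libraries, and a covariate for low or high label numbers. That covariate split the libraries of each line by whether the number in the sample's label was low or high. The ratio of Pfkl to Pfkm was higher by 0.49 in CBK (exact permutation p = 0.0108, adjusted p = 0.0331) and 0.37 in CBK/CEK (exact permutation p = 0.00649, adjusted p = 0.0260).

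Gpi1 (glucose-6-phosphate isomerase) and Tpi1 (triose-phosphate isomerase) were called higher in CBK hearts. Tpi1 stood at 763, 939 and 1287 CPM in CBK hearts, against 682, 748 and 828 CPM in BMAL1 FLOX hearts, with overlapping groups and a log2 fold change of 0.34 ± 0.09 (edgeR adjusted p = 0.0115). Gpi1 had medians of 667 CPM in CBK against 583 CPM in BMAL1 FLOX hearts, in groups that did not overlap, and a log2 fold change of 0.19 ± 0.06 (edgeR adjusted p = 0.0219). Gpi1 was also called in CBK/CEK hearts by DESeq2 (0.17, DESeq2 adjusted p = 0.0203). By edgeR it was called there with a filter of 1 CPM in 6 libraries (0.17, edgeR adjusted p = 0.0471), though not in the joint fit used for the calls. Aldoa was not called in any line, its log2 fold changes lying between -0.13 and 0.09.

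Pfkfb1, an isoform of the enzymes that make and remove fructose 2,6-bisphosphate, gave the largest fall of the set. Libraries stood at 3.86, 7.12 and 8.35 CPM in CBK hearts, against 13.8, 22.5 and 31.7 CPM in BMAL1 FLOX hearts, leaving CBK with 29.3% of the level of its littermates (log2 fold change -1.77 ± 0.18, edgeR adjusted p = 1.63e-10). They stood at 14.0, 15.4 and 16.2 CPM in CEK hearts, against 21.1, 26.3 and 31.4 CPM in E4BP4 FLOX hearts (log2 fold change -0.79 ± 0.18, edgeR adjusted p = 0.0277), and at 7.39, 9.35 and 12.5 CPM in CBK/CEK hearts, against 13.3, 22.0 and 29.003 CPM in BMAL1/E4BP4 FLOX hearts (log2 fold change -1.17 ± 0.18, edgeR adjusted p = 3.77e-06). In these 3 lines every library with Cre lay below every littermate. In the Cre line libraries stood at 9.46, 10.8 and 20.9 CPM in Cre CON hearts, against 18.1, 21.1 and 29.8 CPM in WT hearts. The groups overlapped through Cre CON replicate 1, at 20.9 CPM, and the log2 fold change of -0.82 ± 0.18 was not called (edgeR adjusted p = 0.0909). Without that library it was called at -1.02 (edgeR adjusted p = 0.00103), DESeq2 called it with all libraries (DESeq2 adjusted p = 0.0138), and over 10 alternatives its adjusted p ran from 0.00103 to 0.195. The CEK call was lost without the 5 libraries above (edgeR adjusted p = 0.0902) and with no filter on low counts (edgeR adjusted p = 0.0623).

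Pfkfb2, the isoform that insulin signalling activates in heart, and Pfkfb3 were not called in any line. Pfkfb2 had 20.7, 25.0 and 27.2 CPM in CBK/CEK hearts, against 27.7, 31.2 and 31.7 CPM in BMAL1/E4BP4 FLOX hearts, without overlap but with a log2 fold change of -0.30 ± 0.14 that missed the threshold (edgeR adjusted p = 0.277). The Pfkfb2/Pfkfb1 ratio rose where Pfkfb1 fell, by 1.65 in CBK (exact permutation p = 0.00433, adjusted p = 0.0250), 0.79 in CEK (exact permutation p = 0.0108, adjusted p = 0.0331) and 0.85 in CBK/CEK (exact permutation p = 0.00866, adjusted p = 0.0322). In Cre CON the ratio differed by 0.86 and missed the threshold (exact permutation p = 0.0303, adjusted p = 0.0685). Per kb, Pfkfb1 made up 25.0% ± 8.42 of the transcripts of the PFKFB genes in CBK against 49.9% ± 8.68 in BMAL1 FLOX hearts, and Pfkfb2 51.9% ± 7.79 against 34.8% ± 8.39. The share of Pfkfb1 was 33.7% ± 8.004 in Cre CON against 47.8% ± 8.27 in WT hearts.

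**Figure D4:**
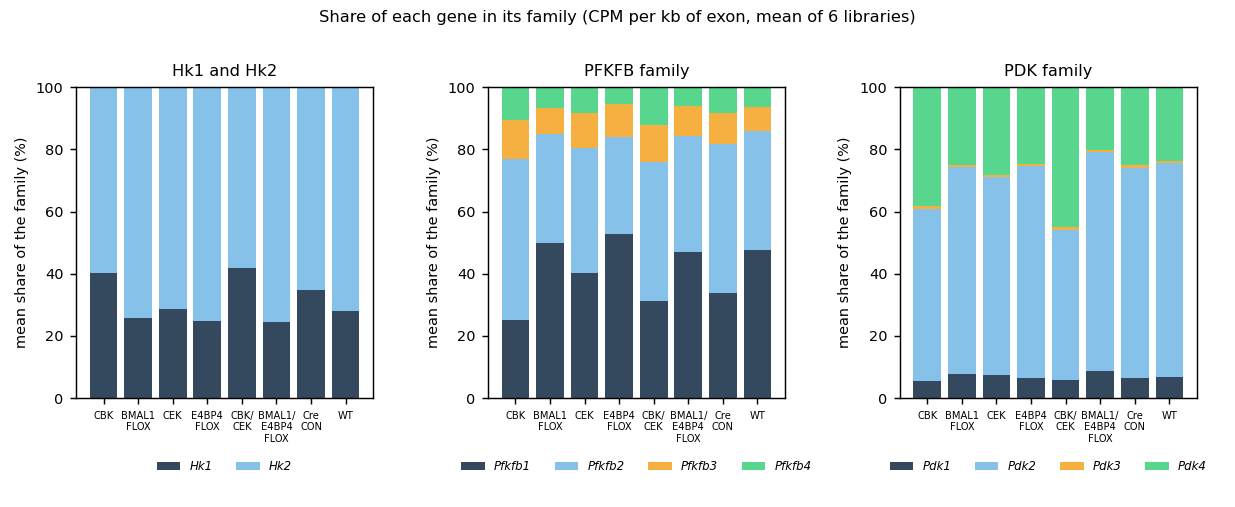
Mean share of each gene in the transcripts of its family (percent of CPM per kb of exon, 6 libraries a group) for Hk1 and Hk2, PFKFB enzymes and PDK kinases, the group with Cre left of its littermates. Hk2 holds 59.7% in CBK against 74.4% in BMAL1 FLOX, Pfkfb1 25.0% against 49.9%, and Pdk4 reaches 45.1% in CBK/CEK against 20.2% in BMAL1/E4BP4 FLOX.

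In lower glycolysis 3 of 7 genes were called higher in CBK hearts (background 4.05%) and none lower. Gapdh rose by 0.33 ± 0.09 (edgeR adjusted p = 0.0139), Pkm, which encodes the muscle pyruvate kinase, by 0.24 ± 0.08 (edgeR adjusted p = 0.0420) and Pgk1 (phosphoglycerate kinase) by 0.21 ± 0.07 (edgeR adjusted p = 0.0471) in log2 fold change. Of these, Pgk1 had groups without overlap, at 209, 225 and 236 CPM in CBK hearts, against 183, 193.02 and 207 CPM in BMAL1 FLOX hearts. These small rises and those of Gpi1 and Tpi1 were all lost without the 5 libraries above and when CBK was fitted alone. Gapdh, Pkm, Pgk1, Tpi1 and Pgam1 have near-identical copies elsewhere in the genome that can share reads, so their counts are uncertain. Pgam1, the phosphoglycerate mutase found in most tissues, was called in the line with both genes floxed, at 15.2, 18.3 and 20.9 CPM in CBK/CEK hearts, against 9.02, 9.91 and 14.7 CPM in BMAL1/E4BP4 FLOX hearts. Every CBK/CEK library was above every littermate, and the log2 fold change was 0.73 ± 0.14 (edgeR adjusted p = 2.49e-04), against 0.28 ± 0.14 in CBK, which was not called with all libraries but was called without the 5 libraries above (0.40, edgeR adjusted p = 0.0362). Pgam2, Eno1 and Eno3 were not called in any line. The log2 fold change of Pgam2 was 0.39 ± 0.18 in CBK, with CBK libraries spread from 567 to 1576 CPM.

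Lactate dehydrogenase and the pyruvate dehydrogenase subunits did not pass the test in any line. Log2 fold changes of Ldha and Ldhb lay between -0.26 and 0.08, and the Ldha/Ldhb ratio differed by 0.22 in CBK (exact permutation p = 0.0238, adjusted p = 0.0619), which missed the threshold after adjustment. Pdha1, the X-linked catalytic subunit, varied widely between libraries of a group, from 202 to 456 CPM in CBK and 201 to 501 CPM in BMAL1 FLOX hearts. Pdhb had log2 fold changes from -0.19 in Cre CON to 0.09 in CBK.

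Of the 5 regulators of pyruvate dehydrogenase in the set, 4 were called lower in CBK hearts (background 4.35%) and none higher. These 4 were both phosphatases and the kinases Pdk1 and Pdk2, whose products act in opposite ways on the complex. The fifth, Pdk3, had a log2 fold change of 0.47 ± 0.22 and was not called (edgeR adjusted p = 0.225). Pdp2, a phosphatase that activates the complex, stood at 17.1, 20.1 and 26.0 CPM in CBK hearts, against 24.1, 29.7 and 39.3 CPM in BMAL1 FLOX hearts (log2 fold change -0.51 ± 0.13, edgeR adjusted p = 0.00390). Pdp1, the calcium-sensitive phosphatase, stood at 15.7, 27.8 and 30.8 CPM in CBK hearts, against 30.7, 33.95 and 39.7 CPM in BMAL1 FLOX hearts (log2 fold change -0.45 ± 0.12, edgeR adjusted p = 0.00772). Pdk1, a kinase that hypoxia is known to induce, had 61.8, 94.2 and 108.2 CPM in CBK hearts, against 107, 119 and 152 CPM in BMAL1 FLOX hearts (log2 fold change -0.45 ± 0.10, edgeR adjusted p = 0.00194). For all 3 genes the highest CBK library reached just into the range of the littermates, and all 3 calls were lost when CBK was fitted alone. Pdk2, the most abundant of these kinases, had medians of 379.9 CPM in CBK against 445 CPM in BMAL1 FLOX hearts without overlap. In CEK hearts its median was 373 CPM, against 498 CPM in E4BP4 FLOX hearts, with overlap at the edge. Its log2 fold change was -0.27 ± 0.08 in CBK (edgeR adjusted p = 0.0188) and -0.37 ± 0.08 in CEK (edgeR adjusted p = 0.0159), and both calls were lost without the 5 libraries above and when each line was fitted alone.

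In CBK/CEK hearts Pdp2 was the only one of these 5 regulators to be called in the joint edgeR fit used for the calls. It stood at 15.0, 18.7 and 28.6 CPM in CBK/CEK hearts, against 23.2, 30.9 and 38.2 CPM in BMAL1/E4BP4 FLOX hearts, with CBK/CEK replicate 4 at 28.6 CPM apart from the other 5 libraries, and its log2 fold change was -0.67 ± 0.13 (edgeR adjusted p = 1.54e-04). The Pdp2/Pdp1 ratio differed by -0.46 in that line (exact permutation p = 0.0130, adjusted p = 0.0375), against -0.01 in CBK, where both genes were lower. Pdp2 was below 0 in the other lines too without a call: -0.46 ± 0.13 in CEK, where no CEK library reached the lowest littermate (edgeR adjusted p = 0.0931), and -0.38 ± 0.13 in Cre CON (edgeR adjusted p = 0.739). Pdk3, a kinase low in heart, passed the test in no line of the joint fit. It had 3.99, 4.79 and 5.42 CPM in CBK/CEK against 2.06, 3.10 and 3.504 CPM in BMAL1/E4BP4 FLOX hearts, groups that did not overlap (log2 fold change 0.68 ± 0.23, edgeR adjusted p = 0.0666), and it was called when that line was fitted alone (edgeR adjusted p = 0.0322) and by DESeq2 (DESeq2 adjusted p = 0.0425). Pdk1 was called lower in CBK/CEK without the 5 libraries above (-0.29, edgeR adjusted p = 0.0424). With the covariate for low or high label numbers, 3 kinases were called in CBK/CEK. These were Pdk1 (-0.30, edgeR adjusted p = 0.0429), Pdk2 (-0.24, edgeR adjusted p = 0.0441) and Pdk3 (0.69, edgeR adjusted p = 0.0366). With replicate number as a block Pdk3 was called as well (0.68, edgeR adjusted p = 0.0386). In CEK hearts the Pdk2/Pdk1 ratio differed by -0.32 (exact permutation p = 0.00649, adjusted p = 0.0260).

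Glycogen genes changed mainly at the subunits that bring protein phosphatase 1 to glycogen, and these moved in opposite directions. Ppp1r3c, which encodes the targeting subunit PTG that favours glycogen synthesis, stood at 114, 155 and 194 CPM in CBK hearts, against 63.0, 85.9 and 96.3 CPM in BMAL1 FLOX hearts. It stood at 158.8, 187.1 and 240.5 CPM in CBK/CEK hearts, against 82.4, 94.2 and 125 CPM in BMAL1/E4BP4 FLOX hearts. Every library with Cre was above every littermate in both lines, with log2 fold changes of 0.87 ± 0.12 (edgeR adjusted p = 2.72e-07) and 0.96 ± 0.12 (edgeR adjusted p = 4.55e-08), or 1.83-fold and 1.94-fold. It had 77.5, 89.7 and 126 CPM in CEK hearts, against 62.4, 80.2 and 99.1 CPM in E4BP4 FLOX hearts, and 89.96, 99.2 and 111 CPM in Cre CON hearts, against 77.0, 99.3 and 102.9 CPM in WT hearts. The groups overlapped in these lines and log2 fold changes of 0.26 ± 0.12 and 0.09 ± 0.12 were not called.

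Ppp1r3a, the targeting subunit typical of striated muscle, fell where Ppp1r3c rose. It stood at 40.3, 51.8 and 60.0 CPM in CBK hearts, against 60.5, 77.0 and 98.8 CPM in BMAL1 FLOX hearts, without overlap, and its log2 fold change was -0.66 ± 0.10 (edgeR adjusted p = 4.80e-06). In the line with both genes floxed it stood at 57.9, 65.8 and 79.6 CPM in CBK/CEK hearts, against 69.0, 91.9 and 102.9 CPM in BMAL1/E4BP4 FLOX hearts, with some overlap and a log2 fold change of -0.39 ± 0.10 (edgeR adjusted p = 0.0122), a call that was lost when the line was fitted alone. In CEK hearts the values were 92.7, 105 and 119.5 CPM, against 81.0, 95.6 and 109 CPM in E4BP4 FLOX hearts, and the log2 fold change of 0.15 ± 0.10 was not called. Cre CON and WT hearts lay close together, at medians of 86.9 CPM in Cre CON and 90.7 CPM in WT.

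Among the enzymes of glycogen in the set few calls were made. Gys1 (muscle glycogen synthase), Gbe1 (branching enzyme) and Ugp2 (which makes UDP-glucose) were not called in any line, nor were Pygb (brain-type phosphorylase) and the phosphorylase kinase subunits Phka1 and Phkg1. With the covariate for low or high label numbers, Phkg1 was called higher in CBK/CEK (0.54, edgeR adjusted p = 0.0390). Pygm was called in CBK/CEK alone of the 4 lines, with medians of 1423 CPM in CBK/CEK against 1227 CPM in BMAL1/E4BP4 FLOX hearts and a log2 fold change of 0.23 ± 0.07 (edgeR adjusted p = 0.0371). This call was lost without the 5 libraries above and when the line was fitted alone. The Pygb/Pygm ratio differed by -0.29 in CBK (exact permutation p = 0.00216, adjusted p = 0.0161) and by -0.37 in CBK/CEK (exact permutation p = 0.00216, adjusted p = 0.0161), so that Pygm held 74.2% of phosphorylase transcripts per kb in CBK against 70.3% in BMAL1 FLOX hearts. The ratio of synthase to phosphorylase, Gys1/Pygm, had a log2 mean of -3.64 ± 0.08 in CBK/CEK and -3.27 ± 0.12 in BMAL1/E4BP4 FLOX hearts, a difference of -0.37 (SD, n = 6 each; exact permutation p = 0.00216, adjusted p = 0.0161), and differed by -0.13 in CBK (exact permutation p = 0.0758). Of the 52 ratio tests, 18 passed the threshold after adjustment, of which 5 belonged to CBK, 7 to CBK/CEK, 3 to CEK and 3 to Cre CON.

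**Figure D5:**
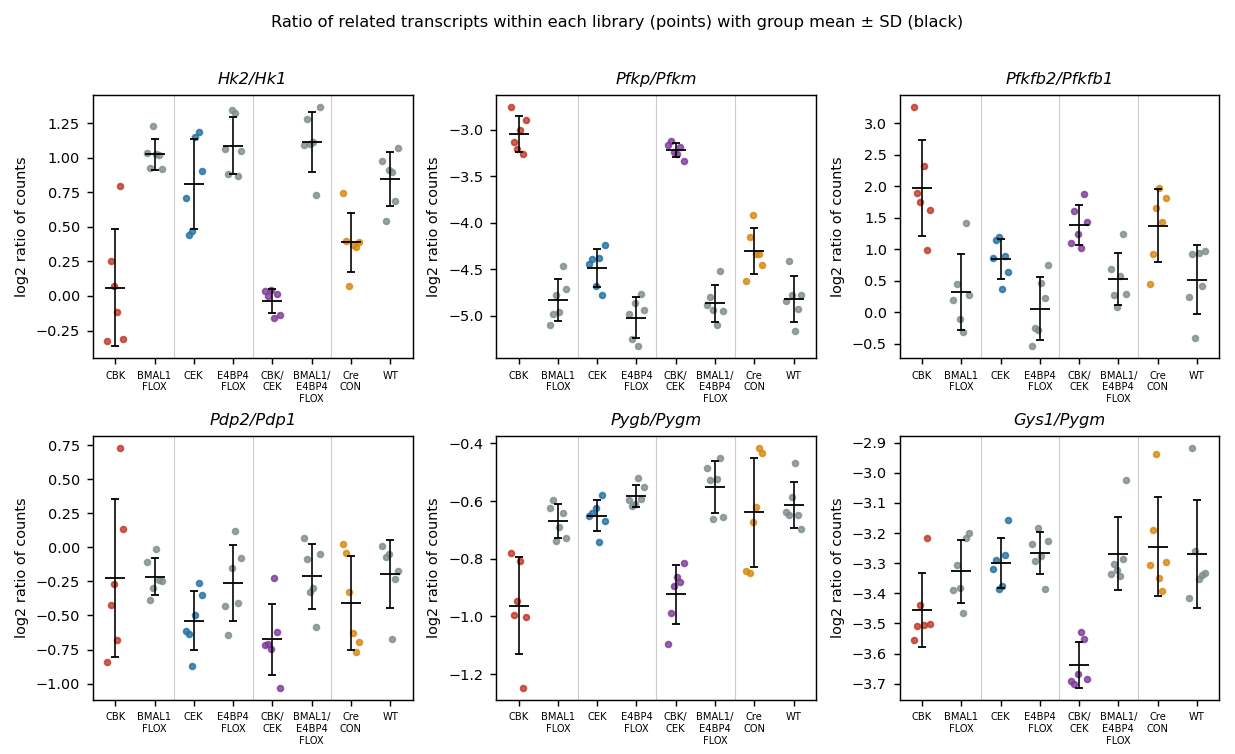
Log2 ratio of the counts of 2 related transcripts in each library (points) with the group mean ± SD (black), the group with Cre left of its littermates. The mean Hk2/Hk1 ratio is 0.06 in CBK against 1.02 in BMAL1 FLOX and -0.04 in CBK/CEK against 1.11 in BMAL1/E4BP4 FLOX, Pfkp/Pfkm is higher in all 4 groups with Cre, and Pygb/Pygm is lower in CBK and CBK/CEK.

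Promoters were searched because BMAL1 is known to bind E-boxes, of which CACGTG and CACGTT are forms, and E4BP4 to bind D-box elements such as TTATGTAA and TTACGTAA. RefSeq promoters of build GRCm38.p6 were at hand for 37 of the 39 genes, 57 promoters in all, and both strands of the 250 bases before each start were read. Slc2a4 and Pdp1, both called lower in CBK hearts, had no promoter at hand and were not searched. CACGTG was found in 7 of the 57 (12.3%), against 6.02% of all 32851 promoters, and CACGTT in 3 (5.26%), against 3.85%. TTATGTAA and TTACGTAA were in none of the 57, against 0.819% and 0.113% of all promoters. Promoters with CACGTG belonged to Ldha, Pdk2, Pdp2, Pfkfb2, Pfkfb3, Pfkm and Ppp1r3c. Of these 7 genes Pdk2, Pdp2, Pfkm and Ppp1r3c were called in CBK hearts, 3 of them lower and Ppp1r3c higher. In the whole set 17 of 38 tested genes were called there (44.7%), against 8.4% of all genes. The CBK calls of Pdk2 and Pfkm were lost without the 5 libraries above. In Pfkm the CACGTG lay before the most upstream start alone. Ldha, Pdk2, Pfkfb2 and Pfkfb3 likewise had a further start without CACGTG in its window. Pfkp and Pfkfb1, with the largest changes of the set, had neither form in their windows. The promoters of Ppp1r3c, Pdp2 and Pdk2 are shown as those of a gene that rose and of regulators of pyruvate dehydrogenase that fell, 5′ to 3′ on the strand of the gene, with the 250 bases before the start in lower case and the matches in capitals. That of Ppp1r3c lies at chr19:36736605-36736854 on the minus strand with CACGTG beginning 104 bases before the start and CACGTT upstream of it. That of Pdp2 lies at chr8:104591222-104591471 on the plus strand with CACGTG 219 bases before it, and that of Pdk2 lies at chr11:95041372-95041621 on the minus strand with CACGTG 126 bases before it. A match is a description of these letters and not evidence of binding.
Ppp1r3c: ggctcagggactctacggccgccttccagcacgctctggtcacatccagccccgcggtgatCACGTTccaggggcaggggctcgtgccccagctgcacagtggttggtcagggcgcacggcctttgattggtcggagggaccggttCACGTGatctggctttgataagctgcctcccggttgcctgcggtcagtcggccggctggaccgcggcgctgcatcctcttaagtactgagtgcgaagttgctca
Pdp2: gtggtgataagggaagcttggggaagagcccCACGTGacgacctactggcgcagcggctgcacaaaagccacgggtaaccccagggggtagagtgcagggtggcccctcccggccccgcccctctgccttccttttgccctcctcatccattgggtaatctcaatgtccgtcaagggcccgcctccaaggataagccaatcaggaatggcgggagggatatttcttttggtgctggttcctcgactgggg
Pdk2: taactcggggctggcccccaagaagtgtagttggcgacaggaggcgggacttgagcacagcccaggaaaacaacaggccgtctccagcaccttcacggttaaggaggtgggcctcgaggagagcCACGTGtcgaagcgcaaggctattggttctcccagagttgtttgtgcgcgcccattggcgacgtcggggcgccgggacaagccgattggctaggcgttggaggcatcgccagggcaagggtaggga

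Whether a change in a knockout line was larger than that in the Cre line was tested as a difference between the log2 fold changes. Against the Cre line, the CBK line had 5 of the 38 genes that differed (13.2%, background 2.47%). Pfkp differed by 1.18 ± 0.16 (edgeR adjusted p = 5.50e-07), Ppp1r3c by 0.78 ± 0.17 (edgeR adjusted p = 0.00294), Ppp1r3a by -0.63 ± 0.15 (edgeR adjusted p = 0.00658), Pfkfb1 by -0.95 ± 0.25 (edgeR adjusted p = 0.0216) and Slc2a4 by -0.36 ± 0.10 (edgeR adjusted p = 0.0269). Without Cre CON replicate 1 the count was 3 and the difference of Pfkfb1 was no longer called (edgeR adjusted p = 0.0848). The share of all genes called without that library is not given here. The difference of Slc2a4 was called under 4 of 9 alternatives. It was lost with no filter on low counts (edgeR adjusted p = 0.127), without Cre CON replicate 1 (edgeR adjusted p = 0.0518), without WT replicate 1 (edgeR adjusted p = 0.0742) and without the 5 libraries above (edgeR adjusted p = 0.0576). The CBK/CEK line differed from the Cre line in 3 genes (7.89%, background 1.34%): Pfkp by 0.99 ± 0.16 (edgeR adjusted p = 3.15e-05), Ppp1r3c by 0.87 ± 0.17 (edgeR adjusted p = 0.00114) and Hk2 by -0.47 ± 0.12 (edgeR adjusted p = 0.0196). For the CEK line edgeR and DESeq2 called no gene of the set as different from the Cre line (background 0.00602%). An unadjusted p under 0.05 was found by edgeR for 2 of the 38 and for 648 of all 16623 genes. The log2 fold changes of Slc2a4 in the CEK and Cre lines differed by -0.21 ± 0.10, and those of Pfkfb1 by 0.03 ± 0.25, without a call.

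The lines with floxed Bmal1 were also compared with CEK. The CBK line differed from CEK in 5 genes (13.2%, background 3.19%): Pfkp by 1.23 ± 0.16 (edgeR adjusted p = 1.69e-07), Pfkfb1 by -0.99 ± 0.25 (edgeR adjusted p = 0.0124), Ppp1r3a by -0.81 ± 0.15 (edgeR adjusted p = 1.86e-04), Ppp1r3c by 0.61 ± 0.17 (edgeR adjusted p = 0.0285) and Pygm by 0.36 ± 0.10 (edgeR adjusted p = 0.0288). This count was 8 under RLE normalisation, 8 with a filter of 1 CPM in 6 libraries and 8 by DESeq2. For counts between lines under other settings, the share of all genes called is not given here. The difference of Pygm was lost with no filter on low counts (edgeR adjusted p = 0.0933) and without the 5 libraries above (edgeR adjusted p = 0.1097). CBK/CEK differed from CEK in 4 (10.5%, background 2.03%), which were Pfkp by 1.05 ± 0.16 (edgeR adjusted p = 9.34e-06), Ppp1r3c by 0.70 ± 0.17 (edgeR adjusted p = 0.0140), Ppp1r3a by -0.54 ± 0.15 (edgeR adjusted p = 0.0330) and Pygm by 0.44 ± 0.10 (edgeR adjusted p = 0.00595), and without the 5 libraries above in 1. Between CBK/CEK and CBK, edgeR and DESeq2 called no gene of the set (background 0.162%). By edgeR 3 had an unadjusted p under 0.05, as had 930 of all 16623 genes. No effect of floxed E4bp4 on top of floxed Bmal1 was thus detected in these genes. A further contrast asked whether the CBK/CEK change departs from the sum of the CBK and CEK changes, with the Cre change taken out once. It gave no call by either tool (background 0.012%). An unadjusted p under 0.05 was found by edgeR for 0 genes of the set and for 980 of all 16623. A p that misses the threshold does not show that the changes add up.

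Beyond the 39 genes, 46 other genes of the same pathways were examined, of which 43 were tested. In CBK hearts 10 of the 43 were called (background 8.4%), 3 higher (background 4.05%) and 7 lower (background 4.35%). The higher ones were Pygl (liver-type phosphorylase, 1.19 ± 0.16, edgeR adjusted p = 1.20e-07) and the phosphorylase kinase subunits Phka2 (0.55 ± 0.10) and Phkb (0.34 ± 0.09). The lower ones were Fbp2 (muscle fructose-1,6-bisphosphatase, -1.36 ± 0.18, edgeR adjusted p = 1.49e-07), Pcx (pyruvate carboxylase, -0.63 ± 0.09), Slc16a1 (the lactate transporter MCT1, -0.41 ± 0.08), Mpc1 (a subunit of the mitochondrial pyruvate carrier, -0.45 ± 0.13), Tbc1d4 (which holds GLUT4 vesicles back until insulin acts, -0.40 ± 0.09), Slc2a12 (the glucose transporter GLUT12, -0.61 ± 0.18) and Ldhd (D-lactate dehydrogenase, -0.27 ± 0.08). Pygl stood at 9.40, 10.3 and 10.9 CPM in CBK hearts, against 3.51, 4.54 and 5.63 CPM in BMAL1 FLOX hearts. Fbp2 stood at 8.50, 15.1 and 21.4 CPM in CBK hearts, against 32.1, 37.4 and 43.6 CPM in BMAL1 FLOX hearts, and neither gene's groups overlapped. Phosphorylase kinase thus had 2 subunit genes called higher in CBK, while Phka1 and Phkg1 of the set were not called.

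In CBK/CEK hearts 7 of the 43 were called (background 5.87%), 4 higher (background 2.97%) and 3 lower (background 2.9%). Pdk4, the kinase that fasting and fatty acids are known to induce, stood at 301, 412 and 526 CPM in CBK/CEK hearts, against 85.8, 126 and 232 CPM in BMAL1/E4BP4 FLOX hearts, without overlap, and rose by 1.46 ± 0.31 (edgeR adjusted p = 0.00118). It had 181.3, 261 and 644 CPM in CBK hearts, against 125, 201 and 249 CPM in BMAL1 FLOX hearts, with overlap and no call (log2 fold change 0.73 ± 0.30, edgeR adjusted p = 0.155). Pygl (1.49 ± 0.16), Phka2 (0.39 ± 0.10) and Phkb (0.34 ± 0.09) were higher there as well, and Fbp2 (-1.26 ± 0.18), Pcx (-0.48 ± 0.09) and Ldhd (-0.41 ± 0.08) lower. Pygl stood at 10.4, 12.4 and 14.9 CPM in CBK/CEK hearts, against 2.42, 4.54 and 6.11 CPM in BMAL1/E4BP4 FLOX hearts, and Fbp2 at 11.7, 16.4 and 20.5 CPM in CBK/CEK hearts, against 27.1, 40.8 and 55.1 CPM in BMAL1/E4BP4 FLOX hearts, both without overlap. In CEK hearts edgeR and DESeq2 called none of these genes (edgeR background 0.307%). By edgeR 10 of the 43 had an unadjusted p under 0.05, as had 1892 of all 16623 genes. In Cre CON hearts neither tool called any (edgeR background 0.018%). There 5 of the 43 had an unadjusted p under 0.05 by edgeR, against 606 of all 16623 genes.

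The 19 tested genes with no call in any line had log2 fold changes between -0.34 and 0.47 for CBK, -0.31 and 0.30 for CEK, -0.30 and 0.68 for CBK/CEK and -0.19 and 0.62 for Cre CON. The upper end in each of the 4 lines was that of Pdk3, a low gene with a standard error of 0.23 in CBK/CEK. Counted by groups without overlap, 9 genes of the set stood apart in CBK (background 4.2%), 3 in CEK (Slc2a4, Pfkfb1 and Pdp2, background 0.77%) and 8 in CBK/CEK (background 3.53%). Beside Pfkp, parts of the exons of Pdha1 (16.1%), Pkm (15.3%), Phkg1 (9.68%), Gys1 (6.47%) and Pfkfb1 (3.06%) lie over another gene on that annotation.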

How the data were processed

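The data are the deposited counts of reads per gene for 48 libraries, made by the authors on GRCm39. The submitters' processing notes list HTSeq 0.11.1, STAR 2.7.9a and bcl2fastq 2.18.0.12. Per the labels' protocols, 1.3 ug of total RNA went into a SMARTER mRNA-Seq kit. The annotation release and whether strand was used in counting could not be read from the sources used here. The 5 summary lines of HTSeq, which held 26.9% to 47.0% of the records of a library, were left out of library sizes. The labels call the samples biological replicates, and p-values measure the spread between them. In the edgeR fit of all libraries, p-values and standard errors rest on a spread pooled over the 8 groups. Between animals, a typical gene varied by 21.3% in the CBK line, 18.7% in CEK, 18.9% in CBK/CEK and 12.4% in the Cre line. These are edgeR's medians over genes, from a separate fit of each line. The pooled spread is thus not that of each line, and its part in the counts of calls was not tested.

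Genes passing edgeR's filterByExpr (16623) were fitted in 8 groups over all 48 libraries with edgeR 4.0.16 (TMM, robust quasi-likelihood test, Benjamini-Hochberg adjustment, R 4.3.3). The 4 lines share no controls, but differences between lines reuse the same Cre or CEK effect. Ratios of 2 genes (0.5 added to counts, log2) were compared by exact permutation tests, two-sided, adjusted over 52. Names and exon lengths came from GENCODE M21, and 97.0% of identifiers matched. Every gene called in a line is named with values, the 12 with the smallest adjusted p in any line are shown by library range, and of the other pathway genes up to 10 called per line are named. For 2 genes of that list results are not reported here. The genes and lists were chosen with earlier results of these data known. Alternatives used DESeq2 1.42.0, other normalisation and filters, covariates, subsets of libraries and each line alone.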

Additional observations from a re-analysis of the deposited data

Results flagged for a closer look

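In 3 of 96 groups of 6 libraries examined for the 12 genes shown in full, 1 library stood far from the others by Dixon's criterion, which chance passes in about 1 group of 20. Cre CON replicate 1 had 20.9 CPM of Pfkfb1, WT replicate 3 had 29.8 CPM of Pfkfb1, and CBK/CEK replicate 4 had 28.6 CPM of Pdp2.

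The log2 fold changes of several genes differed between lines by the edgeR test of the difference itself. CBK minus Cre gave Pfkp 1.18, Ppp1r3c 0.78, Slc2a4 -0.36, Ppp1r3a -0.63 and Pfkfb1 -0.95. CBK/CEK minus Cre gave Pfkp 0.99, Ppp1r3c 0.87 and Hk2 -0.47. CBK minus CEK gave Pfkp 1.23, Ppp1r3c 0.61, Pygm 0.36, Ppp1r3a -0.81 and Pfkfb1 -0.99. CBK/CEK minus CEK gave Pfkp 1.05, Ppp1r3c 0.70, Pygm 0.44 and Ppp1r3a -0.54. The contrasts that share the Cre or the CEK effect are not independent of each other.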

How the results depend on the processing

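No call of a gene in a line or between lines changed sign under any alternative. Of 48 such calls, 24 kept their side of the threshold throughout. All 48 were kept under RLE normalisation, DESeq2 and a filter of 1 CPM in 6 libraries, 36 with no filter on low counts, and 15 of 31 with each line fitted alone. In CBK 17 genes were called, with 11 without the 5 libraries and 6 when fitted alone. In CEK 3 were called, with 0 without a filter, 0 with a replicate block, 0 without the 5 libraries and 1 when fitted alone. In Cre CON 0 were called, with 1 by DESeq2 and 1 without Cre CON replicate 1, both Pfkfb1. CBK minus Cre had 5, with 3 under the replicate block and 3 without Cre CON replicate 1. CBK/CEK minus CEK had 4, with 1 without the 5 libraries. CBK minus CEK had 5, with 8 under RLE, 8 at 1 CPM in 6 libraries, 8 by DESeq2 and 3 under the block. Shares of all genes called under the alternatives are given above only for lines fitted alone and for DESeq2 in Cre CON. Ratios past the threshold without the 5 libraries were 8 in CBK, against 5 with them, and 5 in CEK, against 3. The cause was not tested. Replicate numbers did not pair the samples: same-numbered samples correlated at -0.04 to 0.25 in CBK, -0.12 to 0.03 in the CEK line, -0.17 to 0.21 in CBK/CEK and -0.02 to 0.10 in Cre CON, and the best match had the same number for 1, 1, 3 and 2 of 6 libraries. With the block, 0 ratios passed in each of the 4 lines: the smallest possible exact permutation p of 0.03125 came to an adjusted p of 0.116 over 52 tests. The block also ended the call of Slc2a4 in CBK minus Cre (edgeR adjusted p = 0.106) and of Pygm in CBK minus CEK (edgeR adjusted p = 0.0829). Depth limits the lowest genes most, Aldoc, Pfkfb3 and Pdk3.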
